A study of Mus musculus with 4 samples.

Results

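Prostaglandin genes were followed in astrocyte-enriched cultures (AECs) kept without oxygen and glucose. They were the 10 genes *Ptgs1*, *Ptgs2*, *Ptges*, *Ptges2*, *Ptges3*, *Ptgds*, *Ptgis*, *Ptger2*, *Ptger4* and *Hpgd*, chosen by name among the 29676 gene names on the array. The array read them with 16 of its 39429 probes. AECs were mixed glial cultures from the cortices of newborn ICR mice, and the meninges had been stripped off before dissociation. Microglia had been depleted in both groups with PLX3397, which blocks the CSF1 receptor that these cells need to survive, and oligodendrocytes were still present. Total RNA of untreated AECs (n = 2) and of AECs exposed to oxygen-glucose deprivation (OGD) for 15 h (n = 2) was hybridized to 1 array per sample in a single color. By the methods, wells held separate cultures from different pups, while the labels only number the 2 samples of a group.

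Prostaglandins are lipid messengers made from arachidonic acid, which phospholipases A2 release from membranes. The cyclooxygenases turn arachidonic acid into prostaglandin H2, and terminal synthases turn that intermediate into prostaglandin E2, prostaglandin D2 or prostacyclin. Prostaglandin E2 signals through a family of G protein-coupled receptors, and 15-hydroxyprostaglandin dehydrogenase starts its breakdown. In the brain the inducible cyclooxygenase is known for its rise with synaptic activity, inflammation and ischemia, whereas prostaglandin D synthase of the lipocalin type is abundant in the meninges and in oligodendrocytes.

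*Ptgs2* was the member with the largest measured increase. It was 27.3-fold higher after OGD, while the other cyclooxygenase gene, *Ptgs1*, did not pass the test. *Ptger4*, a receptor for prostaglandin E2, was well above background only after OGD. Its level there was 8.51-fold that of the lowest signals well above background on the untreated arrays. *Ptges3* rose 1.81-fold. Of the 9 tested members 0 were lower past the test, against 27.9% of all genes, whereas with scaling to spiked-in control RNA 7 were lower, against 83.3% of all genes, and 6 of them over 2-fold, against 55.7%. The other values are relative to the 75th percentile of each array, and the increase of *Ptges3* turned into a decrease with the spike-in scaling, as given below.

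The promoters of *Ptgs2* and *Ptger4*, the members with the largest increases, are shown beside that of *Ptgs1*, the cyclooxygenase gene that did not pass the test. They are the 250 bases before the annotated start of each gene in RefSeq, build GRCm38.p6, written 5′ to 3′ on the strand of the gene. The windows lie at chr1:150099781-150100030 (plus strand) for *Ptgs2*, chr15:5244188-5244437 (minus strand) for *Ptger4* and chr2:36230176-36230425 (plus strand) for *Ptgs1*. Capitals mark every match, on either strand, to the motifs described after the sequences.
Ptgs2: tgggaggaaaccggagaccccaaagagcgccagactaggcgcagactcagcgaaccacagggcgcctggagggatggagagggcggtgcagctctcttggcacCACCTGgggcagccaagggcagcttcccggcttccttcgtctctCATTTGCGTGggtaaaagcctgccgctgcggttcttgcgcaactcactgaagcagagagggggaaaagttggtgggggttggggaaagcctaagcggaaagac
Ptger4: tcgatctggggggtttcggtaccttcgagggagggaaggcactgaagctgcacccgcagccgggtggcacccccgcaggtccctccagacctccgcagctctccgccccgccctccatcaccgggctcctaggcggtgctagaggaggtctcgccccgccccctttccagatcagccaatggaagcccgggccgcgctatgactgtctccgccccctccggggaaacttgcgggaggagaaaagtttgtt
Ptgs1: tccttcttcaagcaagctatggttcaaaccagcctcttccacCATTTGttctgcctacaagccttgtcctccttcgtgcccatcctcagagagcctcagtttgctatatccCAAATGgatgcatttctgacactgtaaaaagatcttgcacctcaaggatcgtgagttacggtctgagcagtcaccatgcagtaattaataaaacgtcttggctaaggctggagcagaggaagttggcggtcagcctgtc

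The hypoxia response element was searched by its core, ACGTG, and by the variant of this core that begins with another purine, GCGTG. The cyclic AMP response element was searched by most of its letters, TGACGTC. The other motifs were the AP-1 site, TGANTCA, the core of the site that NR4A receptors bind as monomers, AAGGTCA, the TATA box, TATAAA, the E-box, CANNTG, and the kappaB consensus. N stands for any base. The search covered both strands of a window from 250 bases before to 50 bases after the start, for the 9 members with a promoter in the table, so that *Ptgis* was left out. A hypoxia core of either spelling was found for 5 of the 9 (*Ptgs2*, *Ptges*, *Ptges2*, *Ptges3* and *Hpgd*), and 43.8% of the 32851 promoters in the table held one. *Ptgs2* had such a core 98 bases before its start, sharing 1 base with an E-box. It had another match from base 17 after its start, where the core lies on both strands within an E-box. The window of *Ptger4* held none of the motifs (0 matches), and that of *Ptgs1* held only E-boxes (3). An E-box was found for 7 of the 9 members, against 72.3% of all promoters. The kappaB consensus was found for 2 (*Ptges3* and *Ptgds*, against 8.46% of all promoters), the AP-1 site for 1 (*Ptgds*, 7.81%) and the TATA box for 1 (*Hpgd*, 13.6%). The cyclic AMP motif and the NR4A motif were found for 0 of the 9, and for 3.21% and 4.72% of all promoters. These are matches of letters only, and no binding was measured.

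The signal of a spot is a brightness with background subtracted, in arbitrary units, and each value used here is its log2 minus the 75th percentile of that array. The 75th percentile was lower by 1.37 on the log2 scale on the arrays after OGD, and the share of spots well above background was 64.5% to 66.2% there against 73.0% to 73.7% on the untreated arrays. Scaled in this way, the median log2 fold change over all tested probes was 0.18. With scaling to 9 spiked-in control probes it was −1.11. Between the groups, the log2 differences of those control probes themselves ran from −0.75 to 0.28, with a mean of −0.08. By the methods a fixed amount of total RNA was labeled, so neither scaling measures RNA per cell. The genes were tested with limma, with Benjamini–Hochberg adjustment over 28258 probes, and the brightest tested probe stands for a gene. All 12 astrocyte markers were well above background on all 4 arrays. Less RNA per cell and fewer cells of a type cannot be told apart in such bulk samples.

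Of the 10 members, 8 were well above background on all 4 arrays by their brightest probe, *Ptger4* only after OGD, and *Ptger2* on no array (0 of 4). In all, 3 of the 9 tested members were higher after OGD at an adjusted p limit of 0.05, against 37.0% of all 21064 genes tested, and 0 were lower, against 27.9%. The share of members that rose was close to that of all genes. With spike-in scaling 2 members were higher, against 3.84% of all genes, and 7 were lower, against 83.3%. The members over 2-fold higher were *Ptgs2* and *Ptger4* (2 of 9, against 12.6% of all genes), and 0 were over 2-fold lower, against 15.1%. Over 10-fold, the limit of the methods, the fitted fold again gave 2 of 9, against 0.707% of all genes. For *Ptger4* that fold rests on untreated values that were not well above background, and its probe passed the filter only through the OGD arrays. The median log2 fold change of the 9 members was 0.15, beside 0.16 over all genes. Before any scaling, 14 of the 16 member probes had a lower signal after OGD, and only those of *Ptgs2* and *Ptger4* had a higher one (2).

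**Figure D1:**
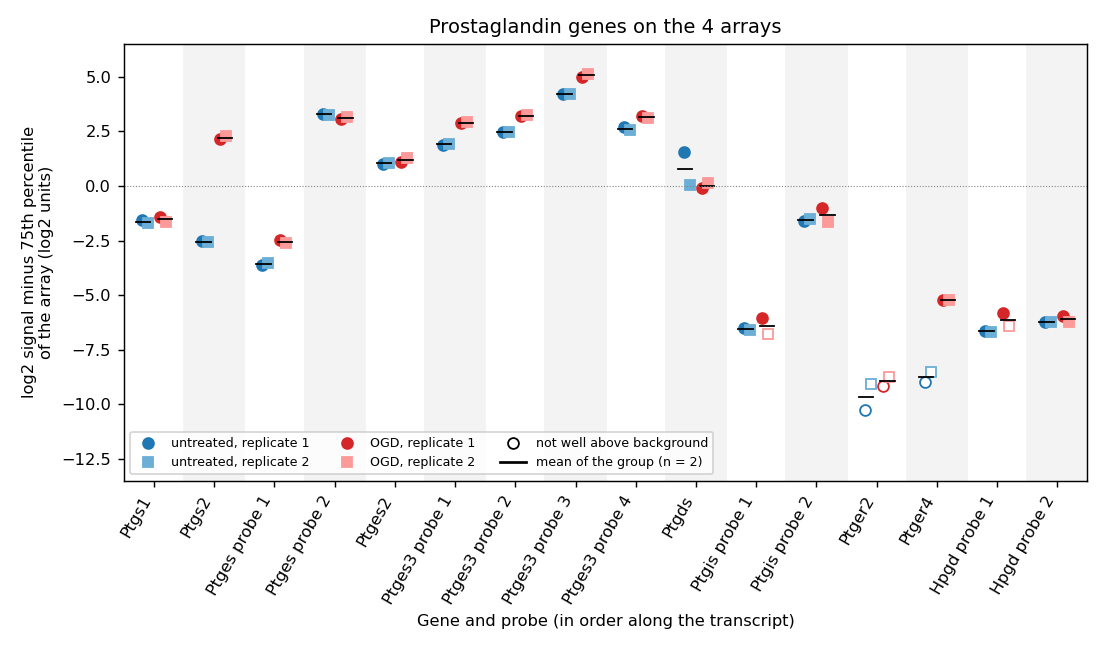
Log2 signal of each of the 16 probes on each array, minus the 75th percentile of that array (y axis), for the 10 prostaglandin genes (x axis, with the probes of a gene in order along its transcript). Blue is untreated and red is OGD, circles are replicate 1 and squares replicate 2, open symbols are not well above background, and black lines are group means (n = 2). *Ptgs2* and *Ptger4* stand clear of their untreated values, and the untreated replicates of *Ptgds* lie apart. Heights of different probes cannot be set against each other.

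The cyclooxygenases carry out the committed step. *Ptgs2* encodes the inducible enzyme, and its probe (transcript NM_011198) lies at chr1:151954744-151954803 of mm9, the build used for all probe positions given here. Its normalized log2 signal was −2.53 and −2.58 in the untreated cultures and 2.14 and 2.29 after OGD. The groups did not overlap, and both OGD values were far above both untreated ones. The log2 fold change was 4.77 (SE 0.094, adjusted p = 0.000714). The processed signal, before any scaling, was 369 and 361 in the untreated cultures and 3896 and 3800 after OGD, a ratio of 10.5. With spike-in scaling the log2 fold change was 3.48.

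*Ptgs2* was the only member printed in 10 spots on each array. Over those spots the processed signal ran from 347 to 385 in untreated replicate 1 and from 333 to 385 in untreated replicate 2. After OGD it ran from 3079 to 4415 in replicate 1 and from 3512 to 4253 in replicate 2. The coefficient of variation over the spots of an array was 3.26% to 9.08%, and every spot of the OGD arrays was brighter than every spot of the untreated arrays. The spots of an array share 1 RNA sample and are not replicates of the condition.

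**Figure D2:**
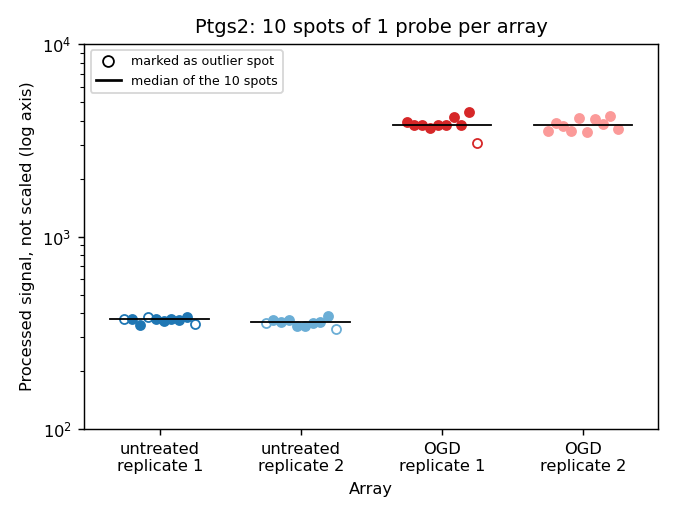
Processed signal of the 10 *Ptgs2* spots on each array, not scaled, on a log axis (y axis), by array (x axis). Open symbols are spots that the software marked as outliers, and lines are medians of the 10 spots. The OGD spots lie between 3079 and 4415, and the untreated spots between 333 and 385.

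*Ptgs1* encodes the constitutive cyclooxygenase. Its normalized log2 signal was −1.58 and −1.68 in the untreated cultures and −1.42 and −1.66 after OGD, so the groups overlapped. The log2 fold change of 0.10 (SE 0.12, adjusted p = 0.515) had a 95% interval from −0.24 to 0.43. The changes of the 2 cyclooxygenase genes differed by 4.67 on the log2 scale, a difference that no scaling of whole arrays alters. Relative to the untreated mean, that difference was 4.48 in OGD replicate 1 and 4.87 in OGD replicate 2, and it was within 0.03 of 0 in the untreated replicates.

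The prostaglandin E synthases gave 3 different pictures. *Ptges* encodes the microsomal enzyme that acts together with the inducible cyclooxygenase, and it was read by 2 probes of the same transcript (NM_022415) that disagreed. The brightest, which begins at base 3583 of the transcript (chr2:30744995-30745054), was at 3.31 and 3.25 in the untreated cultures and at 3.05 and 3.14 after OGD. Its log2 fold change was −0.18 (SE 0.084, adjusted p = 0.133). The other probe, which begins at base 364 (chr2:30748214-30748273), was at −3.64 and −3.51 in the untreated cultures and at −2.50 and −2.61 after OGD. It rose by 1.02 on the log2 scale (SE 0.096, adjusted p = 0.00254), or 2.03-fold. With spike-in scaling it was at −0.27 (adjusted p = 0.111), and the brightest probe was at −1.46. The groups did not overlap for either probe, and the changes of the probes differed by 1.20. Which *Ptges* transcripts each probe reads was not tested, so no single direction is given for the gene.

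*Ptges2* encodes the second, membrane-associated prostaglandin E synthase. It was at 1.02 and 1.04 in the untreated cultures and at 1.1 and 1.26 after OGD. Its log2 fold change of 0.15 (SE 0.095, adjusted p = 0.235) did not pass the test, and the 95% interval ran from −0.12 to 0.42.

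*Ptges3* encodes the cytosolic prostaglandin E synthase, which is also known as p23, a co-chaperone of Hsp90. It was read by 4 probes, and all 4 rose. The brightest was at 4.22 and 4.21 in the untreated cultures and at 5.01 and 5.13 after OGD, a log2 fold change of 0.85 (SE 0.086, adjusted p = 0.00288). In order along the transcript, from base 867 to base 1894, the 4 probes had log2 fold changes of 1.00, 0.75, 0.85 and 0.54, with adjusted p from 0.00189 to 0.00973. The first and the last differed in their change by 0.46. With spike-in scaling all 4 turned negative, from −0.74 to −0.29, and with quantile normalization the brightest probe was at 0.14 (adjusted p = 0.269). Without either untreated replicate the last probe lost the test (adjusted p = 0.0538 and 0.0833), while the other 3 kept it.

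**Figure D3:**
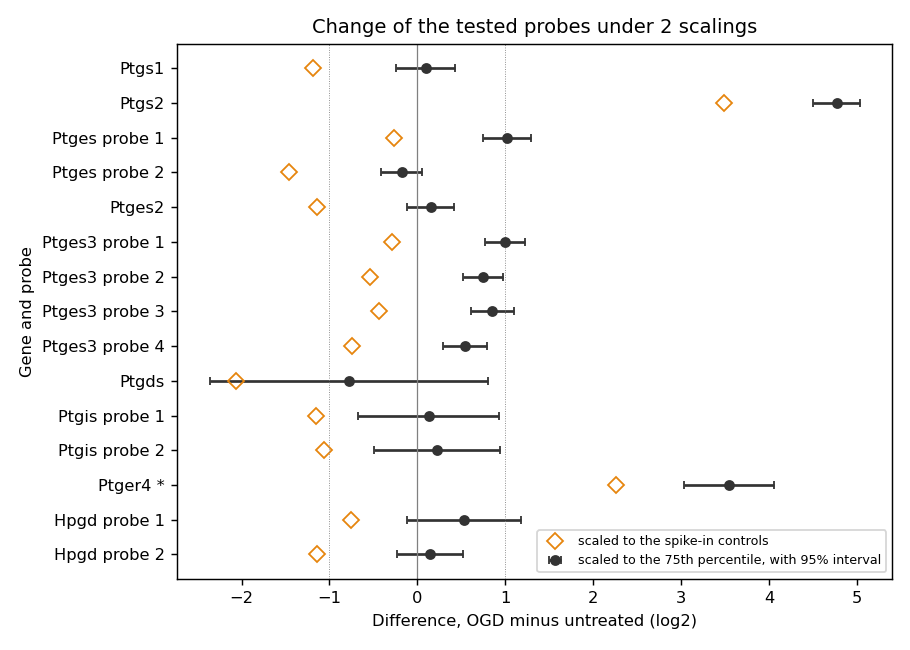
Log2 difference between OGD and untreated AECs (x axis) for each of the 15 tested probes (y axis, with the probes of a gene in order along its transcript). Black points are values scaled to the 75th percentile with 95% intervals from limma, orange diamonds are the same differences scaled to the spike-in probes, and dotted lines mark 2-fold. *Ptgs2* and *Ptger4* were above 0 under both scalings, at 4.77 and 3.48 and at 3.54 and 2.26. The asterisk marks *Ptger4*, which was not well above background in the untreated cultures, so that its points are fitted values and no bounds.

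*Ptgds* and *Ptgis*, the synthases of prostaglandin D2 and prostacyclin, did not pass the test. *Ptgds* encodes the lipocalin-type prostaglandin D synthase. It was at 1.56 and 0.02 in the untreated cultures and at −0.09 and 0.11 after OGD, so that untreated replicate 1 stood apart from the other 3 arrays. The log2 fold change was −0.78 (SE 0.56, adjusted p = 0.286), with a 95% interval from −2.36 to 0.81. Without untreated replicate 1 it was −0.01, and without untreated replicate 2 it was −1.55 (adjusted p = 0.0233).

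The untreated replicates differed by 1.54 at *Ptgds*. A difference of this size was rare, since 99.97% of the 24493 probes well above background and with a usable value on all 4 arrays differed by less. Markers of meningeal fibroblasts were also higher in untreated replicate 1. Their median difference was 0.40, with 0.83 for *Dcn*, 0.75 for *Aldh1a2* and 0.51 for *Col1a1*, and none of the 9 tested was lower there. Between the OGD replicates, again replicate 1 minus replicate 2, their median difference was 0.19, while that of *Ptgds* was −0.21. The summed level of the 10 markers was 23.2 and 18.7 in the untreated cultures, and 12.5 to 14.5 after OGD, in multiples of the 75th percentile. *Col1a1* had no usable spot in OGD replicate 1, so that its signal is missing from that sum. Of the 9 fibroblast markers tested, 2 were higher and 2 lower after OGD (22.2% each, against 37.0% and 27.9% of all genes). Their median log2 fold change was −0.26. Between the untreated replicates, the markers of oligodendrocytes had a median difference of 0.03 and those of astrocytes 0.04. The part of these markers in the values of *Ptgds* was not tested.

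**Figure D4:**
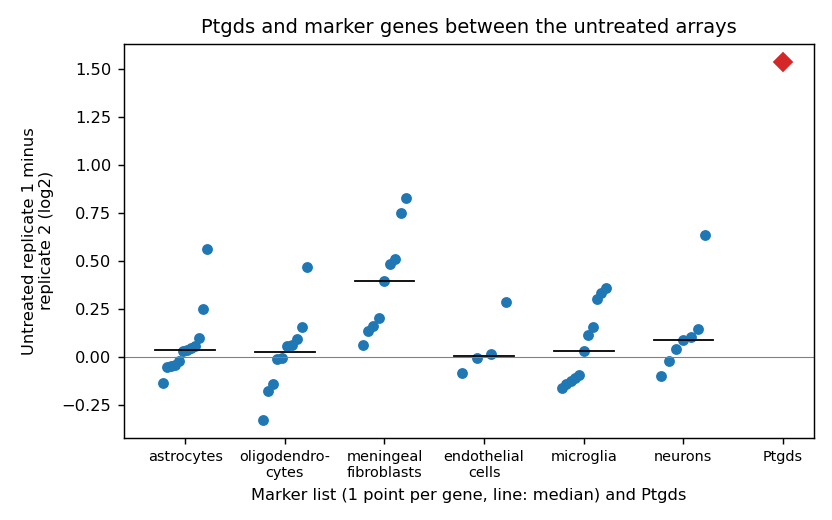
Log2 difference between untreated replicate 1 and untreated replicate 2 (y axis) for the tested genes of each marker list and for *Ptgds* (x axis). Each point is 1 gene by its brightest tested probe, and lines are list medians. *Ptgds* lies at 1.54 and the meningeal fibroblast markers have a median of 0.40, while the medians of the other lists lie between 0.01 and 0.09.

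*Ptgis* encodes prostacyclin synthase and was read by 2 probes. The brightest was at −1.59 and −1.53 in the untreated cultures and at −1.0 and −1.67 after OGD. The OGD values fell on either side of the untreated ones, and the log2 fold change was 0.23 (SE 0.25, adjusted p = 0.474). The OGD replicates differed by 0.67, and 95.5% of the same probes differed by less. Without OGD replicate 2 the log2 fold change was 0.56 (adjusted p = 0.0145), and without OGD replicate 1 it was −0.11. The other probe was not well above background in OGD replicate 2 and had a log2 fold change of 0.13 (adjusted p = 0.712).

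Of the receptors for prostaglandin E2, *Ptger4* encodes EP4 and *Ptger2* encodes EP2, and both are coupled to cyclic AMP. The *Ptger4* probe (chr15:5184419-5184478) had processed signals of 4.21 and 5.88 in the untreated cultures, which were not well above background, and of 24.0 and 21.0 after OGD, which were. The normalized log2 signal was −8.98 and −8.52 against −5.21 and −5.21. The OGD replicates nearly coincided and lay above both untreated values. Set against the lowest signals well above background on the untreated arrays, *Ptger4* was 8.51-fold higher after OGD (fitted log2 fold change 3.54, SE 0.18, adjusted p = 0.000962). The probe entered the fit only through the OGD arrays, so that this p is no support for the increase. The 8.51-fold is no strict lower bound, since some probes above those lowest signals were not called well above background. Before any scaling, the ratio of the processed signals of *Ptger4* was 4.51. With spike-in scaling the fitted value was 2.26. With normexp background correction, which adds a constant of 50 to all signals, it was 1.60, and the dim *Hpgd* probes were at 0.96 and 1.16.

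The *Ptger2* probe (chr14:45622004-45622063) had processed signals of 1.74 and 4.03 in the untreated cultures and of 1.57 and 1.79 after OGD. None was well above background, so it was not tested and no fold is given. The difference between the receptors was therefore not tested either.

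*Hpgd* encodes the dehydrogenase that inactivates prostaglandins, and both of its probes were dim. The brightest was at −6.25 and −6.23 in the untreated cultures and at −5.94 and −6.25 after OGD, with processed signals between 10.2 and 28.8. Its log2 fold change was 0.14 (SE 0.13, adjusted p = 0.397). The other was not well above background in OGD replicate 2 and had a log2 fold change of 0.53 (adjusted p = 0.115). With normexp background correction, which adds a constant of 50 to all signals, the brightest probe was at 0.96 (adjusted p = 5.3e-05). The median of all probes was 0.55 in that setting.

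Another 47 genes of the pathway were on the array, and 36 of them were tested. Of these, 11 were higher after OGD (30.6%, against 37.0% of all genes), 13 were lower (36.1%, against 27.9%) and 12 did not pass the test, with a median log2 fold change of 0.01 beside 0.16 over all genes. With spike-in scaling 3 were higher and 32 lower, where 3.84% and 83.3% of all genes were. With normexp background correction 21 were higher and 6 lower, where 60.4% and 20.8% of all genes were. Over 2-fold, 4 were higher (11.1%, against 12.6%) and 9 were lower (25%, against 15.1%) by the fitted fold. For *Ptgdr2*, 1 of the 9 lower, the fold against the lowest signals well above background on the OGD arrays does not reach 2. Of the 12 tested phospholipases A2, which release arachidonate, 2 were higher, 5 were lower and 5 did not pass the test, with a median log2 fold change of −0.16. The 5 lower ones include *Pla2g1b*, which was not well above background after OGD and entered the fit only through the untreated arrays, so that no fold is given for it. *Pla2g6*, the calcium-independent enzyme, was at −0.56 and −0.46 in the untreated cultures and at −2.21 and −2.33 after OGD, and fell by 1.76 on the log2 scale (SE 0.094, adjusted p = 0.00101). *Pla2g3*, a secreted enzyme, fell by 1.59, and *Pla2g15*, the lysosomal enzyme, fell by 1.03. *Pla2g12a*, another secreted enzyme, rose by 1.00. *Pla2g4a*, the cytosolic enzyme that favours arachidonic acid, was at −0.14 (adjusted p = 0.205).

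Among 5 tested genes of other prostanoid synthases, 2 were higher (40%, against 37.0% of all genes) and 0 were lower (against 27.9%). *Akr1c18*, an aldo-keto reductase with prostaglandin F synthase activity, was at −3.74 and −3.80 in the untreated cultures and at −1.36 and −1.44 after OGD. It rose by 2.37 (SE 0.082, adjusted p = 0.000716), or 5.16-fold, and its signal was higher after OGD before any scaling as well. The other was *Fam213b*, named *Prxl2b* in RefSeq, a prostamide/prostaglandin F synthase, which rose by 0.72.

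The receptors moved in both directions. *Ptger3*, which encodes the prostaglandin E2 receptor EP3, was read by 2 probes that both rose. The brightest was at −5.34 and −5.31 in the untreated cultures and at −3.40 and −3.36 after OGD, a log2 fold change of 1.94 (SE 0.077, adjusted p = 0.000755). The other rose by 2.16. *Tbxa2r*, the thromboxane receptor, went from −4.0 and −4.01 to −6.02 and −5.83 and fell by 1.92 (SE 0.10, adjusted p = 0.000989). *Ptgdr2*, a receptor for prostaglandin D2, was not well above background after OGD (fitted log2 fold change −1.49, adjusted p = 0.0154). Its untreated level was 1.80-fold that of the lowest signals well above background on the OGD arrays, which is no strict bound. Its probe entered the fit only through the untreated arrays, so that this p is no support for the decrease. *Ptger1*, the receptor EP1, fell by 0.34, and *Ptgfr*, the prostaglandin F receptor, was at 0.12 (adjusted p = 0.335).

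Of the 6 genes of transport and breakdown, 3 were higher and 3 were lower, and 64.9% of all genes passed the test in either direction. *Slco2a1*, the prostaglandin transporter that takes prostaglandins up, was at −1.93 and −1.75 in the untreated cultures and at 0.26 and 0.41 after OGD. It rose by 2.17 (SE 0.11, adjusted p = 0.000973), or 4.50-fold. *Abcc4*, an exporter that carries prostaglandin E2 among other substrates, went from 0.51 and 0.57 to −0.79 and −0.85 and fell by 1.36 (SE 0.081, adjusted p = 0.00116). *Zadh2*, a prostaglandin reductase, fell by 1.14.

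In the leukotriene branch, which uses the same arachidonic acid, 3 of 8 tested genes were higher (37.5%, against 37.0% of all genes) and 2 were lower (25%, against 27.9%). *Ltb4r1*, a receptor for leukotriene B4, was at −3.14 and −3.05 in the untreated cultures and at −5.52 in both OGD replicates, and fell by 2.42 (SE 0.081, adjusted p = 0.000714). Over the alternatives run, its log2 fold change ranged from −3.71 to −0.73. *Alox5*, the 5-lipoxygenase, fell by 1.40 (adjusted p = 0.0283), and 1 of its 4 values was not well above background. The increases of *Akr1c18*, *Ptger3* and *Slco2a1* held their sign under every scaling tried, and that of *Pla2g12a* turned to −0.29 with spike-in scaling. With normexp background correction the dim genes *Pla2g3*, *Ptgdr2* and *Alox5* turned positive, and *Tbxa2r* was at −0.20 (adjusted p = 0.0924). The genes not tested, because they were not well above background on both arrays of either group, were *Pla2g4c*, *Pla2g4e*, *Pla2g4f*, *Pla2g2a*, *Pla2g10*, *Pla2g12b*, *Tbxas1*, *Ptgdr*, *Ptgir*, *Alox15* and *Cysltr2* (11).

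**Figure D5:**
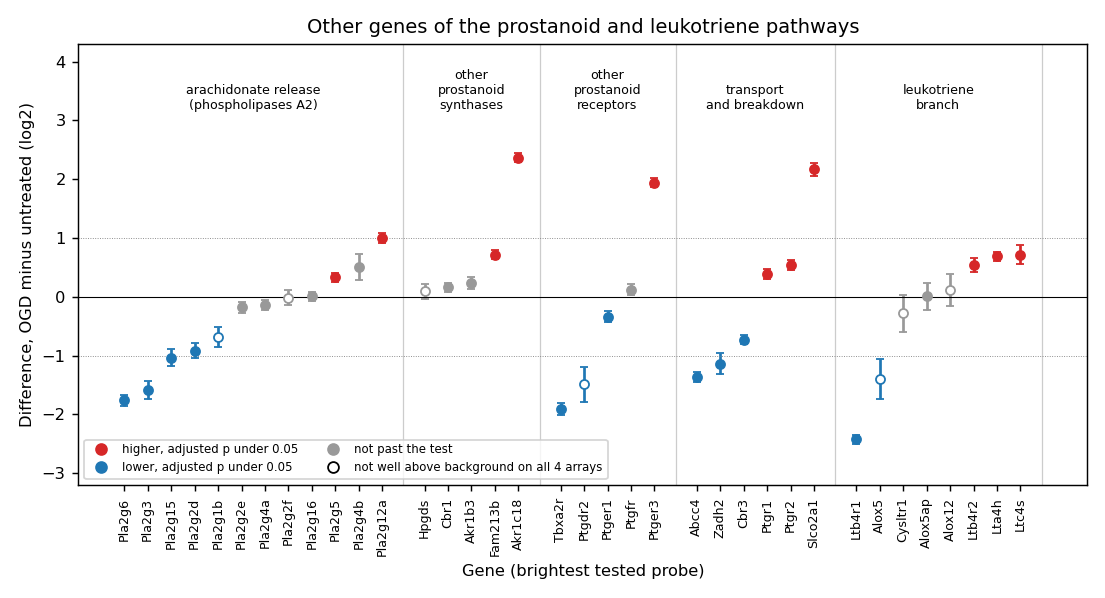
Log2 difference between OGD and untreated AECs with its SE (y axis) for the 36 tested genes of the pathway outside the 10 members (x axis, brightest tested probe), grouped by role. Red is higher and blue is lower at an adjusted p limit of 0.05, grey did not pass the test, open symbols were not well above background on all 4 arrays, and dotted lines mark 2-fold. *Akr1c18*, *Slco2a1* and *Ptger3* are the highest, and *Ltb4r1*, *Tbxa2r* and *Pla2g6* the lowest.

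Of all genes tested, 37.0% were higher and 27.9% lower, and the counts of the marker lists stand beside these shares. Of the 12 astrocyte markers 6 were higher and 2 lower (50% and 16.7%). *S100b* was 2.19-fold higher (adjusted p = 0.00152) and *Gja1* 2.13-fold (adjusted p = 0.00151), while *Sox9* was 2.87-fold lower (adjusted p = 0.00102). Their summed level was 179.5 and 159.7 in the untreated cultures and 235 and 241 after OGD, in multiples of the 75th percentile. Spike-in scaling moves these and all other log2 fold changes by −1.29. Microglia and endothelial cells are known to carry prostaglandin genes too. The summed level of the 12 microglial markers was 1.56 to 1.86 in the untreated cultures and 1.74 to 1.98 after OGD, in multiples of the 75th percentile. Without *Itgam*, the brightest of them, it was 0.297 and 0.293 in the untreated cultures and 0.426 and 0.430 after OGD. Of 11 microglial markers tested, 3 were higher and 2 lower (27.3% and 18.2%), with a median log2 fold change of 0.18. *Aif1* was 2.04-fold higher (adjusted p = 0.00159), *Csf1r* 2.20-fold (adjusted p = 0.00208) and *C1qb* 1.63-fold (adjusted p = 0.00439), while *Tmem119* was 1.85-fold lower (adjusted p = 0.00673) and *Trem2* 1.91-fold lower (adjusted p = 0.0233). *Cx3cr1*, *C1qc* and *Ptprc* were well above background only in the untreated cultures. The summed level of the 8 endothelial markers was 1.75 and 1.84 in the untreated cultures and 1.34 to 1.47 after OGD, and *Cldn5*, *Tek*, *Tie1* and *Emcn* were well above background on 0 arrays. Without *Kdr*, the brightest of them, it was 0.224 and 0.218 in the untreated cultures and 0.236 and 0.198 after OGD. The brightest probe of *Kdr* was 1.32-fold lower (adjusted p = 0.0214), while its other probe was 2.16-fold higher (adjusted p = 0.0391). Of 7 neuronal markers tested, 3 were higher and 2 lower (42.9% and 28.6%). *Nefl* was 3.85-fold higher (adjusted p = 0.000882) and *Gad1* 2.49-fold (adjusted p = 0.00142), while *Syt1* was 1.52-fold lower (adjusted p = 0.0241). *Rbfox3*, the other one called lower, was well above background only in the untreated cultures (adjusted p = 0.0129). It was 1.53-fold lower by the rule for dim probes given below, which is no strict bound. Its probe entered the fit only through the untreated arrays, so that this p is no support for the decrease. The summed level of the neuronal markers was 28.6 and 26.7 in the untreated cultures and 28.6 and 31.5 after OGD. Of 10 oligodendrocyte markers tested, 4 were higher and 3 lower (40% and 30%), and *Olig2* was 5.69-fold lower (adjusted p = 0.000714). Their summed level was 38.6 and 36.3 in the untreated cultures and 43.6 and 45.3 after OGD. The part of these cells in the increases of *Ptgs2* and *Ptger4* was not tested.

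The genes whose 4 values lay nearest to those of *Ptgs2*, each centered on its own mean, among the 24493 probes well above background and with a usable value on all 4 arrays, were *Ern1*, *Grem1*, *Ankrd33b*, *Otud1* and *Arc*. Their Euclidean distances from *Ptgs2* ran from 0.13 to 0.18 on the log2 scale, and their log2 fold changes from 4.78 to 4.91. *Ern1* encodes the stress sensor IRE1 of the endoplasmic reticulum, *Grem1* an antagonist of bone morphogenetic proteins, *Otud1* a deubiquitinase, and *Arc* is an immediate early gene of neurons. For *Ptgds*, the lowest of the members well above background on all arrays, the nearest were *Defa-rs2*, *Spry4*, *Msh5*, *Uchl3* and *Scd3*, at distances from 0.33 to 0.56. With 4 arrays, such a likeness describes the size of the change and the order of the replicates only.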

How the data were processed

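Total RNA of untreated AECs (n = 2) and of AECs after 15 h of OGD (n = 2) was labeled with Cy3 and hybridized to mouse gene expression arrays of 1 color. The authors deposited the spot intensity that Agilent Feature Extraction (11.5.1.1 per the labels) calls the processed signal, with background subtracted within each array and no normalization between arrays. Control and outlier spots were left out, spots of a probe were averaged as log2, and the 75th percentile of each array was subtracted. Probes well above background (at least a fraction of 0.5 of their spots) in both replicates of a group or of both groups entered the fit (28258 of 39429), made in R 4.3.3 by limma 3.58.1 (lmFit, then eBayes). The fit was tested on simulated data. The methods name this scaling with another test per gene, which was run as an alternative. Python 3.11.15 made the tables (pandas 2.3.3 on numpy 2.4.6, intervals from scipy 1.17.1), and matplotlib 3.10.9 drew the figures.

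A probe that was not well above background in a group has no measured level there. For it, the mean of the bright group was set against the mean, over the dim arrays, of the higher of the lowest signal well above background and the own value of the probe. The result is no strict bound, since some probes above those lowest signals were not called well above background. All probes of the 10 members are covered. Other pathway genes are named if they passed the test with over 2-fold or were not tested, and *Fam213b*, *Pla2g4a*, *Ptger1* and *Ptgfr* were added after their values were seen. The pattern rule took the 5 nearest named genes, leaving out names that are only identifiers. The members, gene lists and motifs were chosen with earlier results of these data known. All 10 symbols and 15 of the 16 probe accessions matched RefSeq (GRCm38.p6). For arrays the precision rests on their number and on the signal over background. Exon and UTR positions were not analysed here.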

Additional observations from a re-analysis of the deposited data

How the results depend on the processing

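Precision rests on 2 arrays per group. The increase of *Ptgs2* (3.48 to 4.85) passed the test in every alternative run. The fitted value of *Ptger4* ranged from 1.60 to 3.77, its probe entered the fit only through the OGD arrays, and it is not tested where all 4 arrays must be well above background. All arrays lay on 1 slide. Same-numbered samples did not deviate together (r = −0.03 over 24493 probes, across probes that are not independent). With a single replicate difference per group, this cannot decide whether same-numbered samples were paired. With the replicate number as a block, 3 members were higher, 0 lower, *Ptgs2* was at 4.77, and 10 other pathway genes were higher and 12 lower.

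Of the gene values recomputed, 337 kept direction and side of the threshold, 12 lost the test, 7 gained it and 15 changed sign. With spike-in scaling 7 members were lower, 6 of them over 2-fold, and 1 was over 10-fold higher, while 3 other pathway genes were higher and 32 lower. The sign changed for *Ptgs1* (−1.19), *Ptges2* (−1.14), *Ptges3* (−0.43), *Ptgis* (−1.06), *Hpgd* (−1.14) and *Pla2g12a* (−0.29). That setting moves every value by −1.29, which accounts for the changes. With a 75th percentile taken over bright probes only, *Ptgs1* was at −0.054 and *Hpgd* at −0.0058, 1 member was lower (*Ptges*) and 7 pathway genes were higher. With normexp background correction, *Pla2g3* was at 0.058, *Ptgdr2* at 0.83 and *Alox5* at 0.54, 1 member was over 10-fold higher, and 21 pathway genes were higher and 6 lower. With quantile normalization 1 member (*Ptges*) was lower. With the mean over the probes of a gene *Ptges* was at 0.42. With the methods' t-test 7 pathway genes were lower. With only probes well above background on all 4 arrays 1 member was over 2-fold and over 10-fold higher. The normexp setting adds a constant of 50 to all signals, and its part in the changes of the dim genes was not tested. The cause of the quantile and t-test differences was not tested.

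Without 1 array each, 3 to 4 members were higher (*Ptgis* was added without OGD replicate 2), 0 to 1 were lower (*Ptgds* without untreated replicate 2), also over 2-fold, and 1 to 2 were over 10-fold higher (*Ptger4* was lost without untreated replicate 1). *Ptgs2* ranged from 4.69 to 4.85, and 6 to 12 pathway genes were higher and 8 to 13 lower, the fewest without an untreated array. *Zadh2* (adjusted p 0.0560 and 0.0591) and *Alox5* (0.0986 and 0.121) lost the test without either untreated replicate, *Ptgdr2* (0.0744) without untreated replicate 1 and *Pla2g15* (0.0502) without untreated replicate 2. Without each array in turn *Ptgs1* ranged from −0.023 to 0.21, *Ptgis* from −0.11 to 0.56 and *Hpgd* from −0.012 to 0.30, lowest without OGD replicate 1.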
